A study of Rattus norvegicus with 54 samples.

Results

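The last foetal interval of skeletal muscle, from day 20 (F20) to day 22 (F22) of gestation, was compared on the arrays titled F22 (n = 5) and F20 (n = 5), which are 10 of the 54 arrays of the series. The muscle came from the hind limb of untreated Wistar rat foetuses, which were taken by Caesarean section once the mothers had been killed, and F22 was the last day before birth. The samples of a group were described as biological replicates, and the sources used here do not tell which foetuses came from the same mother. The p-values measure the spread between samples within an age, pooled over 25 muscle arrays of several ages. For a gene that varied far more in F22 than at the other ages, the pooled spread understates that of F22. The series followed liver and muscle through the perinatal change in mitochondrial metabolism, with muscle also at F16, F18, P1 and P4 (foetal and postnatal days, n = 5 each) and liver at F22 and F20 (n = 4 each). Expression was read from total RNA on GeneChip Rat Gene ST arrays, and each value is a log2 signal per probe set, on which a difference of 1 is a 2-fold change. A gene was taken as changed where the adjusted p of its moderated contrast F22 minus F20 in limma was at most 0.05, and "rose" and "fell" are used for such genes only.

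Late foetal muscle builds its contractile machinery while it grows. Myoblasts leave the cell cycle and fuse, and the fibres add sarcomeres, held in register by Z-discs, and the membrane system that releases calcium at each contraction. Embryonic and neonatal myosins are made first and are replaced by adult fast and slow forms. Type I interferons act through their receptor on a set of antiviral genes that share a promoter element, the interferon-stimulated response element (ISRE).

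The tissue label was checked on muscle genes. *Ckm*, the muscle creatine kinase, had log2 signals of 13.15 to 13.54 in F22 and of 12.28 to 13.08 in F20, and *Actc1*, the actin of developing muscle, of 13.67 to 13.80 in F22 and of 13.55 to 13.73 in F20. Genes of other limb tissues were also read. *Krt10* and *Krt14*, keratins of the epidermis, had 13.51 to 13.85 and 12.18 to 12.47 in F22, against 13.28 to 13.64 and 11.84 to 12.15 in F20. In bulk tissue, fewer cells of a type and less RNA per cell cannot be told apart.

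Array medians lay between 8.01 and 8.06. In all, 3 arrays stood apart from their groups. F22 replicate 5 correlated with the other F22 arrays at a mean r of 0.987, against 0.993 to 0.994 for replicates 1 to 4, and 147 of its probe sets lay over 2-fold below the mean of the rest of its group. F20 replicates 4 and 5 correlated with their group at 0.991 and 0.993, against 0.993 to 0.994 for replicates 1 to 3. They had 54 and 53 probe sets over 2-fold above the rest and 11 and 6 below, against 1 to 5 above and 17 to 27 below for replicates 1 to 3. Their mean r with the F22 arrays was 0.9900 each, against 0.9871 to 0.9898 for F20 replicates 1 to 3. Leaving them out thus removes the F20 arrays closest to F22 by this measure. The median cartilage and bone gene (22 measured) was 0.47 and 0.46 above the F20 mean on F20 replicates 4 and 5 and 0.18 to 0.34 below it on F20 replicates 1 to 3. The part of these samples in a result was not tested, and results without 1 or more of them are given for some genes and lists only.

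Of 14506 genes, 804 (5.54%) rose and 1786 (12.3%) fell between F20 and F22, and 4452 (30.7%) had an unadjusted p of at most 0.05. The falls were mostly small: 60 genes (0.414%) rose and 15 (0.103%) fell by over 2-fold, and the median over all genes was -0.01. Without F22 replicate 5, 712 genes rose (4.91%) and 1423 fell (9.81%), of which 602 and 1311 had also done so with it, and none changed in the opposite direction. Without the 3 arrays that stood apart, 972 rose and 1383 fell. The highest differences with groups that did not overlap belonged to *Usp18*, *Car6*, *Isg15*, *Xirp2*, *Oas1b*, *Mlf1* and *Calml3*. The lowest belonged to *Krt77*, *Krt4*, *Defb4*, *Il36a*, *Adh1c* and *Adh6a*.

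**Figure D1:**
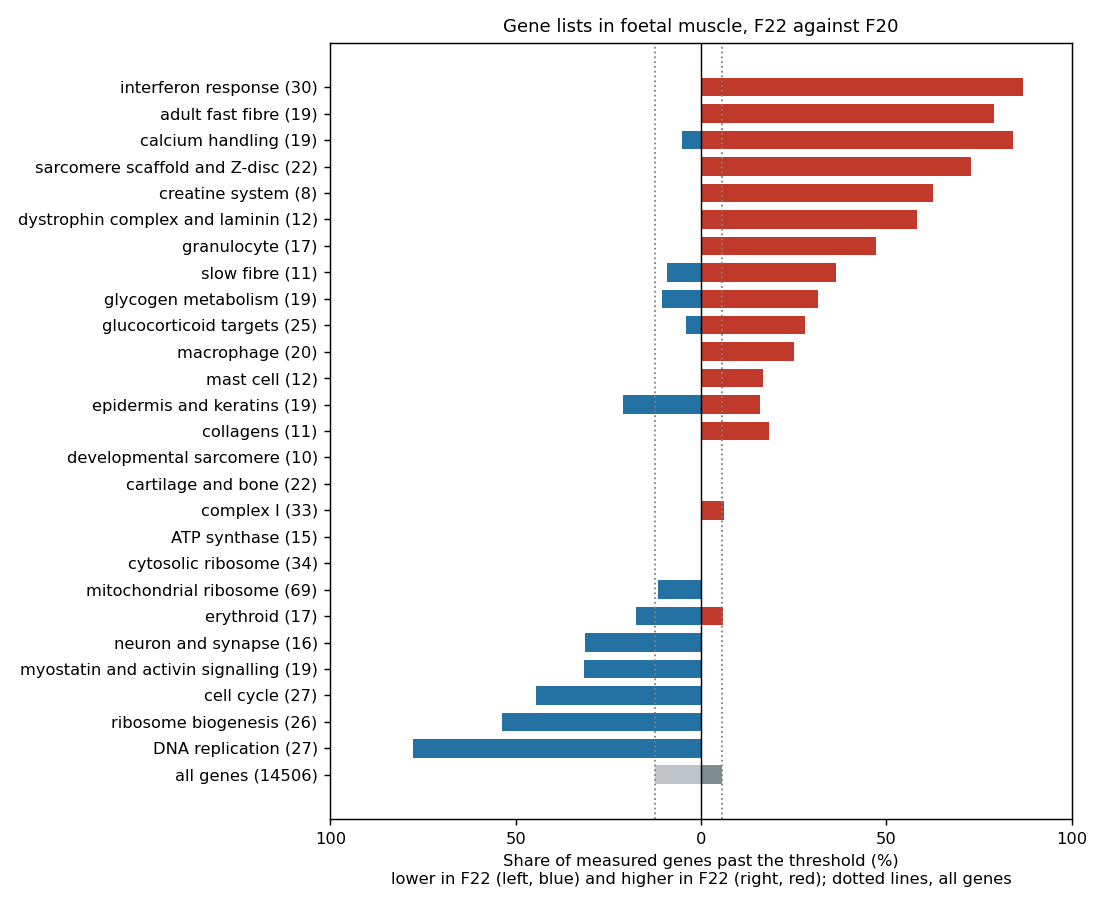
Share of the measured genes of each list that passed the threshold (limma, adjusted p at most 0.05), in percent, with genes lower in F22 than in F20 to the left and genes higher in F22 to the right. The number of genes is in brackets, and dotted lines mark the shares over all genes, 12.3% lower and 5.54% higher. Interferon and contractile lists lie on the right and DNA replication, ribosome biogenesis and cell cycle on the left.

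Interferon-inducible genes were among the highest differences. Of 30 measured genes of the interferon list, 26 rose and none fell (over all genes 5.54% rose and 12.3% fell), with a median difference of 0.86 against -0.01 over all genes. *Usp18*, a protease that removes ISG15 from proteins and damps interferon signalling, had log2 signals of 9.82, 6.82, 8.95, 9.50 and 5.84 in F22 replicates 1 to 5, against 5.71, 5.72, 5.81, 5.79 and 5.72 in F20 replicates 1 to 5. Replicates 1, 3 and 4 of F22 were high, replicate 2 was in between and replicate 5 was only just above the F20 arrays. The difference was 2.44 ± 0.46 (SE, adjusted p = 0.00075 in limma), and 3.02 without F22 replicate 5. The SD of *Usp18* was 1.758 in F22, against 0.045 in F20, 0.14 at F16, 0.025 at P1 and 0.155 at P4. These ages were pooled, so that the SE and the p-value understate the spread in F22. The same holds for *Isg15*, with an SD of 1.373 in F22 and 0.112 in F20, and for *Oas1a* (1.507 and 0.295) and *Mx2* (1.241 and 0.12). The count of 26 comes from the fit that pooled these ages. *Isg15*, the ubiquitin-like modifier itself, had 10.03, 7.33, 9.58, 9.79 and 7.29 in F22, against 6.94, 6.86, 6.80, 6.73 and 7.02 in F20. The order of the F22 arrays was that of *Usp18*, and the groups did not overlap (difference 1.93 ± 0.36, adjusted p = 0.00075 in limma).

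Promoter stretches of interferon-inducible genes that rose are shown because their capital letters share a short element. They were read from RefSeq promoters (build GRCr8), 5′ to 3′ on the strand of the gene, and capitals mark matches to the ISRE core GAAANNGAAA, searched on both strands, where TTTCNNTTTC is the same element on the other strand. Neighbouring matches that overlap were joined. The stretches lie at chr12:41330400-41330465 for *Oas1a*, chr12:41395871-41395936 for *Oas1b*, chr16:18255058-18255123 for *Bst2*, chr1:205800058-205800117 for *Irf7*, chr2:243303832-243303891 for *Ifi44* and chr6:128355203-128355262 for *Ifi27*, on the plus strand for *Oas1a* and *Ifi27* and on the minus strand for the others.
Oas1a: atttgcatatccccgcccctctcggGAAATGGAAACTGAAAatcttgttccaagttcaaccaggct
Oas1b: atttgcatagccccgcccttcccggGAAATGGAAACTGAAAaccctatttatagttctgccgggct
Bst2: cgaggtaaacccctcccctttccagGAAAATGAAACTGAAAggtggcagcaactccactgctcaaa
Irf7: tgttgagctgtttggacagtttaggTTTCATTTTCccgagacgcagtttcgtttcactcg
Ifi44: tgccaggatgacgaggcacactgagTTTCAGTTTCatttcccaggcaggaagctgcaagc
Ifi27: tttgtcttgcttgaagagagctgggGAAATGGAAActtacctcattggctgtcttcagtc
The element was present in 15 of 22 interferon genes with a promoter in the table, 13 of them among the 19 that rose, and in 3.41% of 11968 promoters of the same length of 300 bases. A match of letters is a description of the promoter and no evidence of binding.

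The genes whose promoters are shown differed in how far F22 replicates 2 and 5 followed the rest. *Bst2*, tetherin, which holds budding virus at the cell surface, had 8.60, 7.38, 8.62, 8.74 and 7.60 in F22, against 6.70, 6.74, 6.86, 6.89 and 6.75 in F20. All F22 arrays lay above all F20 arrays, with a difference of 1.40 ± 0.18 (adjusted p = 1e-05 in limma). *Irf7*, the transcription factor that amplifies the type I response, had 9.58, 8.08, 9.34, 9.63 and 7.83 in F22, against 7.58, 7.59, 7.55, 7.59 and 7.74 in F20, again without overlap (1.28 ± 0.23, adjusted p = 0.00049). *Oas1a*, a sensor of double-stranded RNA, had 9.68, 7.30, 9.26, 9.79 and 6.50 in F22, against 5.92, 6.04, 5.98, 6.60 and 6.39 in F20, where F22 replicate 5 fell within the F20 range (2.32 ± 0.40, adjusted p = 0.00037). *Oas1b* rose by 1.83 and *Oas1i* by 2.06 (adjusted p = 6.5e-05 and 0.00048). These paralogues are alike in sequence, and their probe sets may read each other's transcripts.

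Other members with like changes cover the steps of the response. *Irf9*, the DNA-binding subunit of the interferon-activated complex, had 10.05, 9.45, 9.84, 9.98 and 8.99 in F22, against 8.63, 8.67, 8.67, 8.64 and 8.69 in F20 (1.00 ± 0.12, adjusted p = 8.6e-06 in limma). The F20 arrays were nearly equal, and every F22 array was above them. The cytosolic RNA sensor *Ifih1* (MDA5) and its regulator *Dhx58* (LGP2) rose by 1.19 and 0.94, the antiviral GTPase *Mx2* by 1.43, the interferon-induced receptor transporter *Rtp4* by 1.67, and *Ifi44* and *Ifi27* by 1.22 and 1.12. *Dtx3l*, an E3 ubiquitin ligase induced by interferon, had 9.02, 8.09, 8.70, 8.75 and 7.41 in F22, against 7.05, 7.02, 7.21, 7.25 and 6.84 in F20 (1.32 ± 0.18, adjusted p = 3.8e-05). *Tap1*, which carries peptides for presentation on MHC class I, rose by 0.55. The 4 list members that did not pass were *Irf1* (0.11), *Psmb8* (0.15), *Rsad2* (0.30) and *Ifit1* (-0.76, adjusted p = 0.12), and *Ifit1* passed as lower at -1.04 without F20 replicate 5 (adjusted p = 0.026). *Rsad2* passed without F22 replicate 5 (0.59, adjusted p = 0.027) and was at -0.02 without F20 replicates 4 and 5. Only 11 of the 30 genes had groups that did not overlap in the upward direction (3.89% of all genes). Without F22 replicate 5, 27 of 30 rose, with a median of 1.04.

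**Figure D2:**
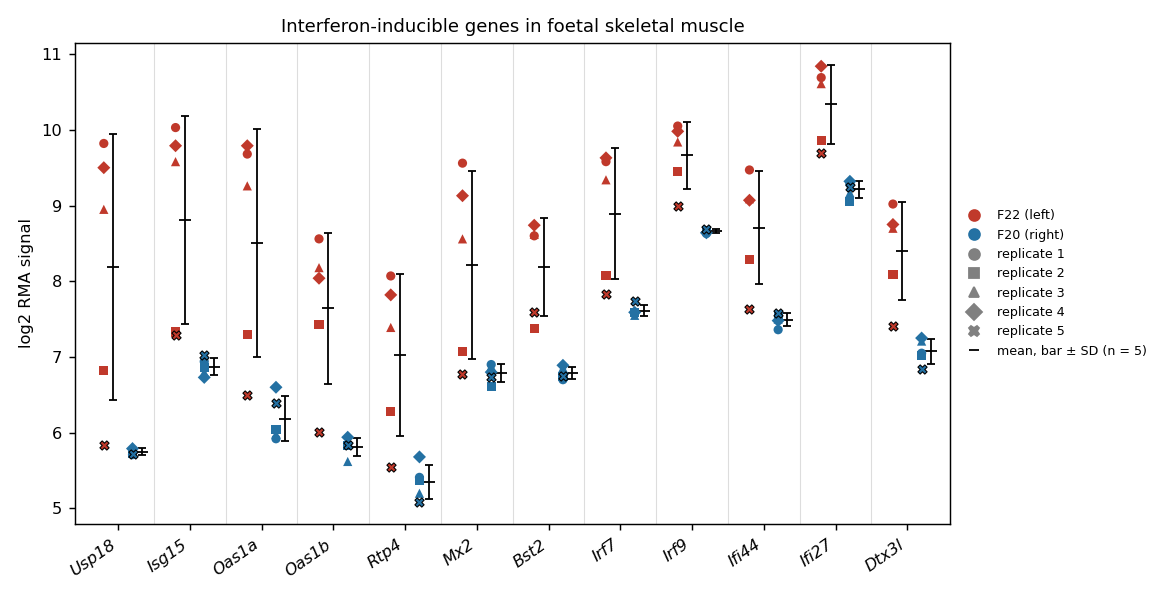
Log2 RMA signal of 12 interferon-inducible genes on each muscle array, with F22 left of F20 for each gene. Symbols give the replicate, and horizontal marks and bars give the mean ± SD of 5 arrays. F22 replicates 1, 3 and 4 are the high arrays, replicates 2 and 5 lie lower, and the F20 arrays lie close together, from 5.71 to 5.81 for *Usp18*.

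The intervals on either side were examined for the same genes. From F18 to F20 none of the 30 interferon genes passed in either direction (14.8% of all genes rose and 15.9% fell), and from F22 to P1 17 of 30 fell and none rose (7.98% and 8.93% of all genes). These intervals share the F20 or the F22 arrays with the comparison, so that the difference between the changes was tested in itself. The change from F20 to F22 was higher than that from F18 to F20 for 19 of 30 genes (3.39% of all genes), and the change from F22 to P1 was lower than that from F20 to F22 for 22 (1.33% of all genes). For *Usp18* these contrasts were 2.50 and -4.92 (adjusted p = 0.033 and 0.00064 in limma), with means of 5.88, 5.82, 5.75, 8.19, 5.70 and 5.65 at F16, F18, F20, F22, P1 and P4. *Bst2* kept part of its level, with means of 6.57, 6.81, 6.79, 8.19, 7.58 and 7.48 at the same times.

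In liver, 28 of the 30 interferon genes rose and 1 fell from F20 to F22 (15.8% and 21.6% of all genes). The muscle change minus the liver change passed as higher for 1 gene and as lower for 7 (12.5% and 13.6% of all genes). For *Usp18* it was -0.93 (adjusted p = 0.32 in limma) and for *Isg15* 0.57 (adjusted p = 0.47), so that a difference between the tissues was not detected for either.

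Genes of the contractile apparatus rose widely. Of 22 measured genes of the sarcomere scaffold and Z-disc 16 rose, of 19 adult fast fibre genes 15, of 19 calcium handling genes 16, and of 12 genes of the dystrophin complex and laminin 7 (5.54% of all genes), with medians of 0.58, 0.65, 0.45 and 0.31. In these lists 1 gene fell, *Pln* of calcium handling. Without F22 replicate 5, 15, 14, 10 and 5 genes of these lists rose, with medians of 0.51, 0.57, 0.39 and 0.27, without F20 replicate 2 the calcium handling list had 10, and without F20 replicate 2 or 3 the dystrophin list had 4. On F22 replicate 5 the median fast fibre gene was 0.95 above the F20 mean, the highest of the 10 arrays, against 0.44 to 0.71 on the other F22 arrays, and the F20 arrays ranged from -0.35 to 0.38.

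*Xirp2*, an actin-binding protein of the Z-disc and intercalated disc, had 7.83, 7.55, 8.35, 7.80 and 9.82 in F22, against 6.59, 6.12, 6.05, 6.57 and 6.40 in F20. Every F22 array was above every F20 array, and F22 replicate 5 was by far the highest. The difference was 1.92 ± 0.28 (adjusted p = 7.3e-05 in limma), and 1.54 without that replicate. *Hspb7*, a small heat shock protein of heart and skeletal muscle, had 9.77 to 10.63 in F22, against 8.35 to 9.58 in F20 (1.15 ± 0.17, adjusted p = 9.1e-05). *Nrap*, which takes part in myofibril assembly, *Tmod4*, which caps thin filaments, and *Myot*, which crosslinks them at the Z-disc, rose by 1.04, 0.99 and 0.83, all without overlap. *Ttn*, the titin spring of the sarcomere, rose by 0.67, with F22 at 12.73 to 12.93 and F20 at 11.99 to 12.42, but did not pass without the 3 arrays that stood apart (0.57, adjusted p = 0.092).

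*Myoz1*, a Z-disc protein of fast fibres that binds calcineurin, had 11.12, 10.60, 10.91, 10.75 and 11.66 in F22, against 9.30, 9.04, 8.83, 10.57 and 10.34 in F20. The F20 arrays fell into replicates 1 to 3, which were low, and replicates 4 and 5, which nearly reached the F22 range. The difference was 1.39 ± 0.24 (adjusted p = 0.00043 in limma), and 1.79 without the 3 arrays that stood apart. The fast troponins *Tnni2*, *Tnnt3* and *Tnnc2* rose by 1.05, 0.79 and 0.78, *Mylk2*, the kinase of the myosin light chain, by 0.93, and *Actn3*, the fast alpha-actinin, by 0.82. *Tnni2* and *Tnnt3* had groups that did not overlap, and for *Mylk2* and *Tnnc2* F20 replicate 4 lay within the F22 range. Adult myosin heavy chains had smaller differences. Their signals lay near or below the array medians, so a smaller difference cannot be read as a smaller change. *Myh4* (IIb) had 7.83, 7.64, 7.94, 7.87 and 8.02 in F22, against 7.38, 7.34, 7.24, 7.52 and 7.29 in F20 (0.51 ± 0.10, adjusted p = 0.00081), while *Myh1* (IIx) and *Myh2* (IIa) differed by 0.32 and 0.30 and did not pass (adjusted p = 0.08 and 0.062). *Myh1* passed without F20 replicate 4 (0.38, adjusted p = 0.044).

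The calcium release unit and the membrane complex each had a member with a clear change. *Trdn*, triadin, which anchors calsequestrin to the ryanodine receptor, had 10.30, 10.03, 10.32, 10.06 and 10.86 in F22, against 8.91, 8.84, 8.63, 9.30 and 8.62 in F20 (1.45 ± 0.14, adjusted p = 6.6e-07 in limma). *Dmd*, dystrophin, had 10.74, 10.58, 10.81, 10.60 and 10.76 in F22, against 9.87, 9.72, 9.78, 9.76 and 9.36 in F20 (1.00 ± 0.09, adjusted p = 3.6e-07). Neither gene had groups that overlapped, and the differences of *Trdn* and *Dmd* were 1.32 and 0.99 without F22 replicate 5. The ryanodine receptor *Ryr3*, which foetal muscle carries beside *Ryr1*, rose by 0.85. *Ryr1*, the main release channel, rose by 0.49 and did not pass without F22 replicate 5 (0.41, adjusted p = 0.061) or without F20 replicate 2 (0.44, adjusted p = 0.053). *Atp2a1*, the calcium pump of fast fibres, rose by 0.72, and *Pln*, phospholamban, which restrains the slow-fibre pump, had 7.49, 7.35, 7.25, 7.51 and 7.40 in F22, against 7.97, 7.92, 7.90, 8.30 and 7.76 in F20 and fell by 0.57 (adjusted p = 0.0011). *Itga7*, the laminin receptor of fibres, and *Sgcd*, delta-sarcoglycan, rose by 0.52 and 0.40.

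Among contractile genes, matches to the MEF2 motif were found in the RefSeq promoters of 3 of 15 fast fibre, 4 of 17 Z-disc and 1 of 14 calcium handling genes, against 2.52% of all 11968 promoters. MEF2 factors are regulators of muscle genes, and a match is again a description of letters only. The stretches with a match are shown for the members with the highest differences, with the match in capitals, from chr3:72534087-72534146 (*Xirp2*), chr5:159010638-159010697 (*Hspb7*) and chr15:3693505-3693564 (*Myoz1*), all on the plus strand of GRCr8.
Xirp2: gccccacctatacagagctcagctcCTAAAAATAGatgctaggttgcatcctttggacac
Hspb7: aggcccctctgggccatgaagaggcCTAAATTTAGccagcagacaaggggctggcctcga
Myoz1: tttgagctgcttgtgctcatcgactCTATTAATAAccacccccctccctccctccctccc

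**Figure D3:**
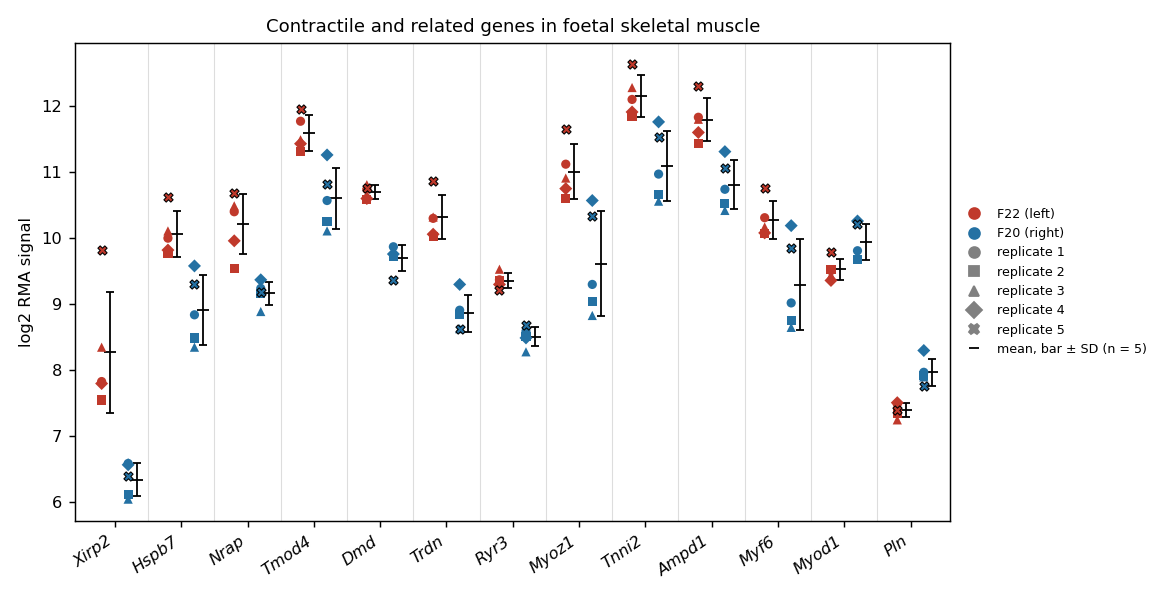
Log2 RMA signal of 13 genes of contraction, energy use and muscle differentiation on each muscle array, with F22 left of F20 for each gene. Symbols give the replicate, and horizontal marks and bars give the mean ± SD of 5 arrays. F22 replicate 5 is the highest F22 array for most genes (9.82 for *Xirp2*), and F20 replicates 4 and 5 lie nearest to F22 for *Myoz1*, at 10.57 and 10.34.

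Of 11 slow fibre genes 4 rose and 1 fell (5.54% and 12.3% of all genes), and 6 rose and none fell without F20 replicates 4 and 5. Of 10 genes of the developmental sarcomere none passed in either direction in limma, at an adjusted p of at most 0.05. *Myh7*, the slow myosin heavy chain, had 11.17, 10.87, 11.23, 10.95 and 11.38 in F22, against 10.62, 10.30, 10.34, 10.63 and 10.70 in F20 (0.60 ± 0.15, adjusted p = 0.0062). *Myl2*, the slow regulatory light chain, rose by 0.75 and did not pass without F20 replicate 2 or 3 (0.61 and 0.56). *Tnnc1*, slow troponin C, fell by 0.46 (adjusted p = 0.031) and lost the call without any of 6 arrays, at -0.33 without F20 replicate 4 to -0.47 without F22 replicate 3. *Myh3*, the embryonic myosin, had 13.17 to 13.24 in F22 and 12.83 to 13.04 in F20, a difference of 0.31 that did not pass (adjusted p = 0.1). *Chrng*, the foetal subunit of the acetylcholine receptor, differed by 0.06.

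Of 15 genes of myogenic factors and fusion 2 rose, 1 fell and 12 did not pass (5.54% of all genes rose and 12.3% fell). *Myf6* (MRF4), the myogenic factor of maturing fibres, had 10.31, 10.07, 10.17, 10.08 and 10.76 in F22, against 9.02, 8.75, 8.65, 10.19 and 9.85 in F20 (0.99 ± 0.21, adjusted p = 0.0018 in limma). As for *Myoz1*, F20 replicates 4 and 5 were the high arrays of F20, and replicate 4 overlapped F22. *Myod1*, which commits cells to the myogenic lineage, had 9.51, 9.53, 9.44, 9.36 and 9.79 in F22, against 9.81, 9.68, 9.75, 10.26 and 10.21 in F20, and fell by 0.42 (adjusted p = 0.019). The fall did not pass without F20 replicate 4 (-0.34), F20 replicate 5 (-0.35) or F22 replicate 4 (-0.38), nor without all 3 arrays that stood apart (-0.29). *Myog*, which drives fusion and differentiation, differed by -0.18 (adjusted p = 0.28). At the neuromuscular junction *Chrna1*, the alpha subunit of the acetylcholine receptor, fell by 0.38 (-0.31 and adjusted p = 0.066 in limma without the 3 arrays that stood apart), and *Scn4a*, the sodium channel of the fibre membrane, rose by 0.54. Of 18 genes of the junction 1 rose, 2 fell and 15 did not pass, shares near those of all genes (5.54% rose and 12.3% fell).

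Of 8 genes of the creatine and adenylate system 5 rose (5.54% of all genes) and none fell. *Ampd1*, the AMP deaminase of skeletal muscle, had 11.83, 11.43, 11.80, 11.60 and 12.30 in F22, against 10.74, 10.52, 10.42, 11.31 and 11.06 in F20 (0.98 ± 0.15, adjusted p = 8.3e-05 in limma), and *Ckm* rose by 0.62. Of 19 glycogen genes 6 rose and 2 fell (5.54% and 12.3% of all genes), with a median of 0.03. *Ppp1r3a*, which brings protein phosphatase 1 to muscle glycogen, rose by 0.92, and the muscle phosphorylase *Pygm* by 0.68, while the brain phosphorylase *Pygb* had 10.40 to 10.54 in F22 and 10.61 to 10.88 in F20 and fell by 0.30. The glucose transporters went opposite ways. *Slc2a4* (GLUT4), the insulin-sensitive form, had 8.55, 8.26, 8.48, 8.41 and 9.08 in F22, against 7.79, 7.79, 7.82, 8.23 and 8.01 in F20 (0.63 ± 0.13, adjusted p = 0.0019). *Slc2a3* (GLUT3) had 8.40, 8.29, 8.35, 8.29 and 8.38 in F22, against 9.09, 9.20, 9.31, 8.66 and 8.91 in F20 (-0.69 ± 0.12, adjusted p = 0.00039). Neither pair of groups overlapped, and glycolysis as a list was split, with 5 of 25 genes higher, among them the muscle mutase *Pgam2* (0.62), and 6 lower.

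Mitochondrial genes changed little as groups. Over all genes 5.54% rose and 12.3% fell, which is the background for each list here. Of 33 genes of complex I 2 rose (6.06%, near that background), and 4 did without F20 replicates 4 and 5. Of 21 of complexes III and IV 3 rose and 1 fell (1 and 1 without F22 replicate 5). Of 15 of ATP synthase none passed, and of 69 of the mitochondrial ribosome 8 fell, a share near the 12.3% of all genes. Only 4 of the ribosome genes fell without F22 replicate 2, and 5 without F22 replicate 4 or F20 replicate 2, 4 or 5. The count was 3 without F20 replicates 4 and 5 together and 2 without the 3 arrays that stood apart. The muscle isoforms *Cox8b* and *Cox6a2* of cytochrome oxidase rose by 0.70 and 0.65, but *Cox6a2* did not pass without F22 replicate 3 or 5 (0.64 and 0.44) or without F20 replicate 2 or 3 (0.56 and 0.52). Of 24 regulators of mitochondrial biogenesis 4 rose, 2 fell and 18 did not pass. *Ppara*, the receptor that controls fatty acid oxidation, rose by 0.80, *Perm1*, a muscle regulator of PGC-1 and ERR targets, by 0.76, and *Ppargc1a*, PGC-1alpha, by 0.58. Each had groups without overlap, such as 8.49, 8.01, 8.33, 8.24 and 8.35 in F22 and 7.87, 7.51, 7.63, 7.94 and 7.54 in F20 for *Ppargc1a* (adjusted p = 0.00019 in limma). *Coq8a*, the atypical kinase needed for coenzyme Q synthesis, had 8.43, 8.04, 8.40, 8.07 and 9.28 in F22, against 7.33, 7.44, 7.46, 7.75 and 7.70 in F20 (0.90 ± 0.17, adjusted p = 0.00075), and was the only one of 12 measured genes of that pathway to pass. In fatty acid oxidation 5 of 25 genes rose and 1 fell, with *Cpt1b*, the muscle carnitine palmitoyltransferase, at 0.74 and *Acadm*, the medium-chain acyl-CoA dehydrogenase, at 0.42. *Pdk4*, which inhibits pyruvate dehydrogenase, had 9.17, 9.01, 9.04, 9.06 and 9.83 in F22, against 8.17, 8.15, 8.12, 8.89 and 8.66 in F20 (0.82 ± 0.18, adjusted p = 0.0021).

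*Pdk4* is also a glucocorticoid target. Of 25 such genes 7 rose and 1 fell (5.54% and 12.3% of all genes), *Fbxo32* (atrogin-1, a ubiquitin ligase of muscle) by 0.48 and *Klf9* by 0.46 among those that rose. *Angptl4*, an inhibitor of lipoprotein lipase, fell by 0.48. From F22 to P1 22 of the 25 rose (8.93% of all genes), and for 15 the change across birth was higher than that from F20 to F22 (2.93% of all genes). *Angptl4* rose from F22 to P1 by 0.85, and the contrast between its changes was 1.32 (adjusted p = 0.00093 in limma).

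Genes of proliferation fell by small amounts. Of 27 genes of DNA replication 21 fell and none rose, of 26 of ribosome biogenesis 14 fell, and of 27 of the cell cycle 12 fell (12.3% of all genes). The medians were -0.28, -0.18 and -0.22. *Chaf1b*, a subunit of the chromatin assembly factor, had 9.16, 9.20, 9.12, 9.21 and 8.83 in F22, against 9.62, 9.62, 9.65, 9.62 and 9.62 in F20 (-0.52 ± 0.06, adjusted p = 9.1e-06 in limma). The F20 arrays were nearly equal, all F22 arrays were lower and F22 replicate 5 was the lowest. *Ccne1*, cyclin E1, which starts S phase, had 10.13, 10.13, 10.09, 10.09 and 9.87 in F22, against 10.59, 10.45, 10.49, 10.77 and 10.67 in F20 (-0.53 ± 0.09, adjusted p = 0.0002). The helicase subunits *Mcm5* and *Mcm7* fell by 0.38 and 0.34 and the ribonucleotide reductase subunit *Rrm2* by 0.39. Of the mitotic genes, *Cdc20*, the activator of the anaphase-promoting complex, fell by 0.52, and the kinases *Aurka* and *Plk1* by 0.36 and 0.35. Of the ribosome makers, *Polr1e*, a subunit of RNA polymerase I, fell by 0.38 and *Utp4*, of the small subunit processome, by 0.37, while none of 34 ribosomal protein genes passed in limma, in either direction.

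Without F22 replicate 5, 17, 9 and 9 genes of these 3 lists fell (9.81% of all genes), with medians of -0.20, -0.18 and -0.14. *Gins1*, of the replicative helicase, was at -0.24 (adjusted p = 0.082 in limma) without that array and at -0.35 (adjusted p = 0.058) without F20 replicate 2, against -0.37 with all arrays. *Myc*, a driver of ribosome biogenesis, had 8.86 to 9.15 in F22 and 9.30 to 9.45 in F20, without overlap, and its fall of 0.33 (adjusted p = 0.042) did not pass in 8 of the 10 fits that left out 1 array. In liver 26 of the 27 replication genes fell (21.6% of all genes). The muscle change was higher than the liver change, which is a smaller fall, for 16 of the 27 (12.5% of all genes). *Mcm5* was among these (0.39, adjusted p = 0.0072 in limma).

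E2F elements, the sites of factors that switch on S phase genes, were looked for in promoters of replication genes. The letters TTTCCCGC, TTTGGCGC, TTTCGCGC and TTTGCCGC were searched on both strands, and 12 of 23 replication genes (9 of the 18 that fell), 1 of 22 cell cycle genes and 3.08% of all 11968 promoters held at least 1 of them. The matches are in capitals for chr19:13488780-13488837 (*Mcm5*, plus strand), chr3:160184870-160184931 (*Gins1*, plus strand) and chr12:22163198-22163255 (*Mcm7*, minus strand) of GRCr8.
Mcm5: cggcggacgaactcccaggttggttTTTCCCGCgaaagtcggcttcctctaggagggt
Gins1: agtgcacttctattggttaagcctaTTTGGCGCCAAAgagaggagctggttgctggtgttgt
Mcm7: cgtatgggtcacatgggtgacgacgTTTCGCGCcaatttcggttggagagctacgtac

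Growth factors changed on both sides of the myostatin pathway. *Mstn*, myostatin, which limits muscle growth, had 10.15, 10.06, 10.16, 10.06 and 10.03 in F22, against 10.52, 10.54, 10.52, 10.74 and 10.45 in F20 (-0.46 ± 0.10, adjusted p = 0.0032 in limma). *Fst*, follistatin, which binds and blocks it, had 8.92, 8.88, 9.03, 8.98 and 8.93 in F22, against 9.39, 9.36, 9.31, 9.46 and 9.42 in F20 (-0.44 ± 0.08, adjusted p = 0.00048). Of 19 genes of myostatin and activin signalling 6 fell and none rose (12.3% and 5.54% of all genes). Only 4 fell without F22 replicate 2, 3 or 4 or without F20 replicate 3, 4 or 5. *Igfbp2*, an IGF-binding protein, fell by 0.61, and *Socs2*, a growth hormone-induced inhibitor of its own signal, rose by 0.53. Among imprinted genes *Nnat*, neuronatin, fell by 0.62, and the long noncoding *Meg3* rose by 0.42 but was at 0.19 (adjusted p = 0.33) without the 3 arrays that stood apart. *Nupr1*, a stress-induced chromatin protein, rose by 1.26, with F22 at 9.69 to 10.39 and F20 at 8.25 to 9.51, where F20 replicates 4 and 5 were again the high ones.

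The deepest falls belonged to genes of surface epithelia. *Krt77*, a keratin of epidermis and sweat ducts, had 7.85, 9.03, 7.86, 7.80 and 7.18 in F22, against 11.80, 12.18, 12.27, 11.00 and 10.60 in F20. The difference was -3.63 ± 0.27, 12.4-fold lower (adjusted p = 2.4e-08 in limma), and -3.44 without F22 replicate 5. *Krt4*, a keratin of lining epithelia without a horny layer, had 7.02, 7.30, 6.89, 6.99 and 6.50 in F22, against 10.49, 10.72, 10.74, 8.61 and 9.04 in F20 (-2.98 ± 0.28, adjusted p = 4.2e-07). In *Krt4*, and likewise in *Krt19* and the epithelial transcription factor *Elf5*, which fell by 1.82 and 1.78, F20 replicates 4 and 5 were the lower arrays of F20 and still lay above every F22 array. *Defb4*, a beta-defensin, and *Il36a*, an epithelial cytokine, fell by 2.65 and 2.62, with F20 replicates 4 and 5 as the highest arrays.

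Of 19 genes of the epidermis list, 4 fell and 3 rose (12.3% and 5.54% of all genes). The 4 that fell were *Krt77*, *Krt4*, *Krt13* (-1.07) and *Krt15* (-0.71). Those that rose were *Ivl*, *Calml3* and *Lgals7*. *Ivl*, involucrin of the cornified envelope, had 10.80, 10.90, 10.83, 11.21 and 9.65 in F22, against 8.42, 8.55, 7.90, 10.11 and 10.20 in F20 (1.64 ± 0.34, adjusted p = 0.0015 in limma), with F22 replicate 5 inside the F20 range. *Calml3*, a calmodulin-like protein of epithelia, had 10.04, 9.29, 10.25, 10.38 and 9.42 in F22, against 7.80, 8.16, 8.35, 8.32 and 8.56 in F20 (1.64 ± 0.18, adjusted p = 2.8e-06). *Lgals7*, galectin-7, rose by 0.62 and did not pass without any of 5 arrays, at 0.55 to 0.60. *Krt10* and *Krt14* differed by 0.21 and 0.34 and did not pass (adjusted p = 0.39 and 0.069). The mean level over the epidermis list was 9.68 to 10.14 in F22 and 9.95 to 10.37 in F20, and the part of skin in these samples was not tested.

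*Adh1c*, an alcohol dehydrogenase, had 8.91, 10.06, 8.55, 8.95 and 8.34 in F22, against 11.76, 11.49, 11.52, 11.73 and 11.41 in F20 (-2.62 ± 0.22, adjusted p = 9.7e-08 in limma). F22 replicate 2 was the highest F22 array, as it was for *Krt77*, *Krt4*, *Elf5* and *Il36a*, and the groups did not overlap. *Adh6a* and *Aldh1a1*, a retinal dehydrogenase, fell by 2.17 and 1.16, and the cytochrome *Cyp2f4* fell by 1.82. The differences of *Upk1b* and *Upk3bl1*, of the uroplakin family, were -0.98 and -1.08. *Tmem45b*, a membrane protein, fell by 1.53. For *Adh1c* the change from F18 to F20 was 2.68 and the change from F20 to F22 minus that change was -5.30 (adjusted p = 9e-10 in limma), and *Krt77* had means of 7.08, 10.22, 11.57, 7.94, 7.12 and 7.08 at F16, F18, F20, F22, P1 and P4. In liver *Adh1c* rose by 3.58, and the muscle change minus the liver change was -6.20 (adjusted p = 6e-20).

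**Figure D4:**
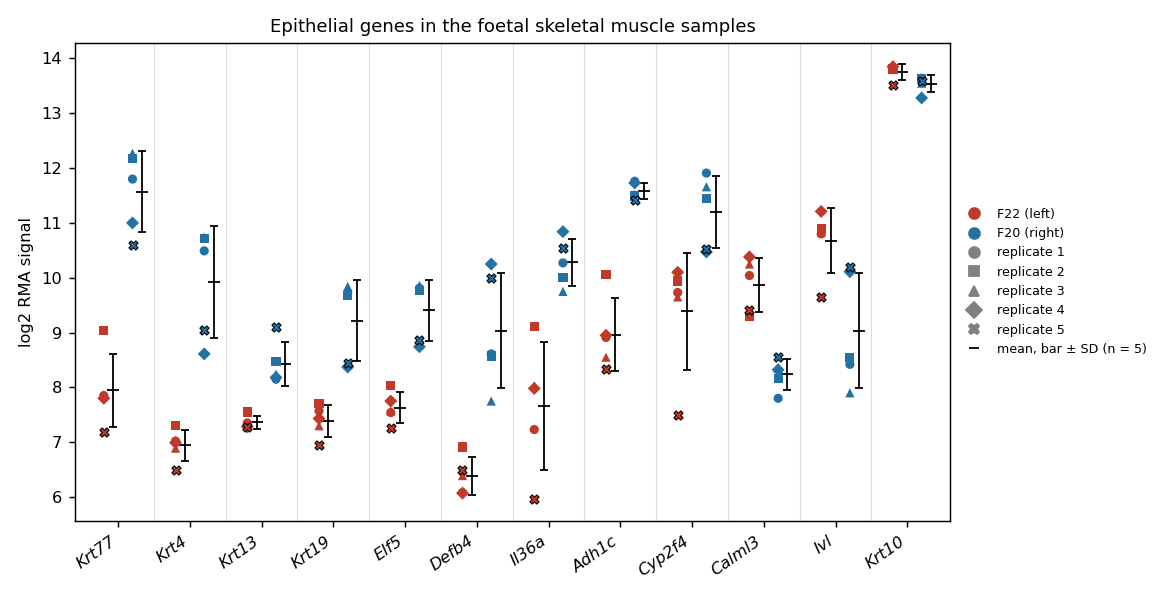
Log2 RMA signal of 12 genes of epithelia on each muscle array, with F22 left of F20 for each gene. Symbols give the replicate, and horizontal marks and bars give the mean ± SD of 5 arrays. *Krt77*, *Krt4*, *Krt13* and *Krt19* are low in F22 (6.50 to 7.30 for *Krt4*, against 8.61 to 10.74 in F20), while *Calml3* and *Ivl* are higher and *Krt10* overlaps.

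Of 17 granulocyte genes 8 rose (5.54% of all genes) and none fell. *Mmp8*, the collagenase of neutrophils, had 7.72, 7.65, 8.15, 7.92 and 7.74 in F22, against 6.36, 6.32, 6.20, 6.87 and 6.47 in F20 (1.39 ± 0.16, adjusted p = 3e-06 in limma). *S100a9*, a calcium-binding protein of myeloid cells, had 7.96, 8.10, 8.69, 8.23 and 8.15 in F22, against 6.83, 6.67, 6.64, 7.10 and 7.15 in F20 (1.35 ± 0.17, adjusted p = 9e-06). Neither gene overlapped, and the mean level over the list was 7.48 to 7.80 in F22 and 7.08 to 7.40 in F20. *S100a8* rose by 0.65 and *Ngp*, a neutrophil granule protein, by 0.89, the last at 0.66 without F22 replicate 5 (adjusted p = 0.07) and 0.75 without F20 replicate 3 (adjusted p = 0.064), and it did not pass without F22 replicate 4 either (0.81). Without F22 replicate 4 or 5 or F20 replicate 3, 5 genes of the list rose. In liver 16 of the 17 rose (15.8% of all genes), and the muscle change was lower than the liver change for 15 (13.6% of all genes).

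Of 20 macrophage genes 5 rose (5.54% of all genes), and 12 did without F20 replicates 4 and 5. *Cd163*, the haemoglobin scavenger receptor of tissue macrophages, had 8.97, 8.73, 9.48, 9.06 and 9.27 in F22, against 7.96, 7.96, 7.39, 8.61 and 8.29 in F20 (1.06 ± 0.17, adjusted p = 0.00015 in limma), and *C1qa*, of the first complement component, rose by 0.57. The count was 3 without F20 replicate 3 and 8 without F20 replicate 4. Of 12 mast cell genes the tryptases *Tpsab1* and *Tpsb2*, near-identical paralogues, rose by 1.18 and 0.85, and 6 genes rose without F22 replicate 5 and 5 without F20 replicate 4. *Tpsab1* had 10.37, 9.92, 10.44, 10.42 and 10.21 in F22, against 8.53, 8.75, 8.21, 10.23 and 9.75 in F20, so that F20 replicate 4 reached the F22 range. Of 14 lymphocyte genes none passed in limma.

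Of 17 erythroid genes 3 fell and 1 rose (12.3% and 5.54% of all genes). *Hbe1*, an embryonic globin, had 11.36, 11.83, 12.37, 11.41 and 8.31 in F22, against 13.51, 13.67, 13.67, 12.32 and 12.24 in F20 (-2.02 ± 0.46, adjusted p = 0.0037 in limma). F22 replicate 5 was by far the lowest array, and without it the difference of *Hbe1* was -1.34 (adjusted p = 0.0014 in limma). *Hbg1*, another embryonic globin, had 9.36, 9.01, 9.63, 8.60 and 6.90 in F22, against 10.02, 11.18, 10.89, 10.42 and 9.80 in F20 (-1.76 ± 0.37, adjusted p = 0.0019). Globin genes are alike in sequence, and their probe sets may read each other. *Ahsp*, the chaperone of alpha globin, had 11.10 to 11.35 on F22 replicates 1 to 4, 8.58 on replicate 5 and 11.08 to 11.67 in F20, and did not pass (adjusted p = 0.28). The median over the list was -0.32, and -0.04 without F22 replicate 5.

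Of 16 genes of neurons and synapses 5 fell (12.3% of all genes), 11 did not pass and none rose, and 3 fell without F22 replicate 5, F20 replicate 2 or F20 replicate 3. *Uchl1*, a ubiquitin hydrolase of neurons, had 9.62, 9.42, 9.49, 9.75 and 9.76 in F22, against 10.39, 10.53, 10.63, 10.55 and 10.49 in F20 (-0.91 ± 0.09, adjusted p = 8.8e-07 in limma), without overlap. *Stmn2*, a growth cone protein, fell by 0.64 and did not pass without F22 replicate 5 (-0.52) or F20 replicate 1, 2 or 3 (-0.59 to -0.61). Of the tissues around the fibre, 2 of 11 collagens rose (5.54% of all genes), and none of 22 cartilage and bone genes passed in limma.

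Other genes with high differences belonged to no list. *Car6*, a secreted carbonic anhydrase, had 9.71, 9.37, 10.12, 10.28 and 9.66 in F22, against 7.62, 7.66, 7.63, 8.18 and 7.73 in F20 (2.06 ± 0.22, adjusted p = 1.2e-06 in limma). *Mlf1*, myeloid leukaemia factor 1, had 8.65, 8.16, 8.72, 8.57 and 9.48 in F22, against 6.71, 6.72, 6.53, 7.60 and 7.24 in F20 (1.76 ± 0.19, adjusted p = 1.2e-06). *Sts*, steroid sulphatase, rose by 1.44, and *Cyp3a9*, a cytochrome of steroid oxidation, was 2.83-fold higher in F22. All 4 were named by the rule that takes only genes with groups that do not overlap, so the lack of overlap is no separate result.

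F22 replicate 5 differed from the other F22 arrays in several of these groups at once. The interferon list stood only 0.13 above the F20 mean on it, against 0.46 to 1.38 on F22 replicates 1 to 4, and the erythroid list was 0.88 below the F20 mean, against -0.22 to 0.02. It was lower in DNA replication (-0.50, against -0.24 to -0.15), in the cell cycle (-0.54, against -0.17 to -0.10), in cholesterol synthesis and lipogenesis (-0.45, against 0.03 to 0.18) and in the epidermis list (-0.41, against 0.03 to 0.20), and higher in fast fibre genes. Of single genes, those furthest below the mean of the other F22 arrays were *Wfdc18* (-3.72), *Hbe1* (-3.44), *Usp18* (-2.93), *Oas1i* (-2.75), *Ahsp* (-2.63) and *Slc7a11* (-2.47), and those furthest above were *Spetex2g* (2.07), *Xirp2* (1.94), *Hspb6* (1.46) and *Adipoq* (1.34). *Hspb6*, a small heat shock protein of muscle, rose by 1.26, and by 0.96 without this array, and *Wfdc18*, a whey acidic protein family member, rose by 0.95 only without it (adjusted p = 0.0057 in limma, against 0.21 and 0.82 with all arrays). Of the 2590 genes that changed, 42 had differences that shrank over 1.5 times when it was left out, none had one that grew as much, and none changed sign. This count covers only genes that passed with the array, so that genes such as *Wfdc18* are not in it. When the array was left out, 202 rises and 475 falls lost their call, and 110 and 112 were gained.

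**Figure D5:**
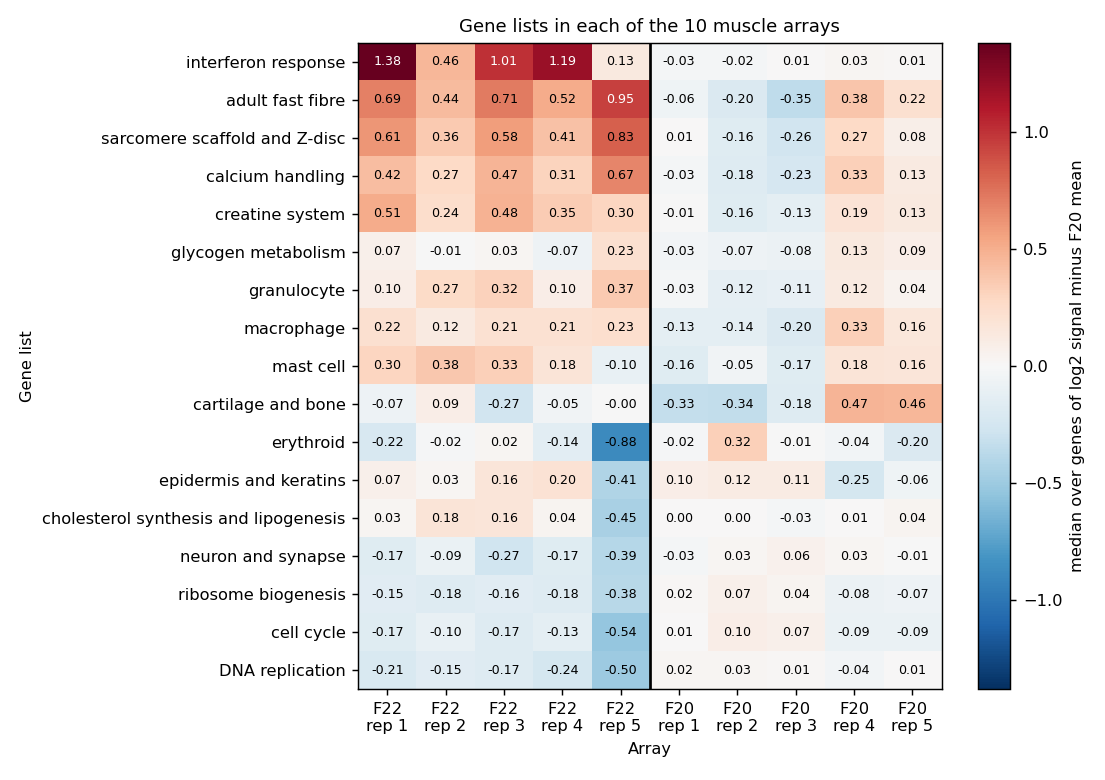
Median over the genes of a list of the log2 signal minus the F20 mean of the gene, for each of the 10 muscle arrays (columns, F22 left of the line and F20 right of it) and 17 lists, with the value printed in each cell and red for higher. F22 replicate 5 has 0.13 for the interferon list and -0.88 for the erythroid list, and F20 replicates 4 and 5 have 0.47 and 0.46 for cartilage and bone.

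The interval was also set against the one before it as a whole. The contractile lists had risen from F18 to F20 as well, with 13 of 19 fast fibre, 19 of 22 Z-disc and 16 of 19 calcium handling genes higher (14.8% of all genes). The change from F20 to F22 was higher than that from F18 to F20 for none, 1 and none of these genes and lower for 1, 4 and 1, *Pln* in calcium handling (3.39% and 6.69% of all genes). *Xirp2* was the Z-disc gene with a higher change, by 1.59 (adjusted p = 0.028 in limma), with means of 6.16, 6.02, 6.35, 8.27, 9.74 and 9.51 at F16, F18, F20, F22, P1 and P4. *Ckm* was the fast fibre gene with a lower one, by -1.02 (adjusted p = 0.0052). *Dmd* had means of 8.46, 9.25, 9.70, 10.70, 10.89 and 9.95, and its change was higher than that of the interval before, by 0.55 (adjusted p = 0.034), and than that across birth, where the contrast was -0.81 (adjusted p = 0.0045). In liver *Xirp2* and *Trdn* differed by 0.26 and 0.19 (adjusted p = 0.53 and 0.5), and the muscle change was higher by 1.66 and 1.26 (adjusted p = 0.00077 and 0.00019).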

How the data were processed

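Total RNA of each sample was hybridised to an Affymetrix Rat Gene 1.0 ST array. The authors deposited 1 log2 value for each probe set, summarised and normalised by RMA in Affymetrix Expression Console (version not given in the sources used here), so that background correction and quantile normalisation were already done and detection calls were not used. The number of arrays limits the precision. Of 29214 probe sets, 15310 had 1 gene symbol in the platform annotation, 323 had several and 13581 had none. These 15310 were tested, and each of 14506 genes was represented by the probe set that was brightest on average in muscle (527 genes had several).

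The 25 muscle arrays of F16, F20, F22, P1 and P4 were fitted without liver in limma 3.58.1 (R 4.3.3). Each age had 1 mean, and the ages shared 1 estimate of the spread for each probe set. P-values were adjusted over all 15310 probe sets by the method of Benjamini and Hochberg. Contrasts with F18 used all 30 muscle arrays, and contrasts with liver a joint fit of both tissues. Genes named were the 15 highest and 15 lowest differences without overlap, members of 57 gene lists, and the 10 highest and 10 lowest deviations of F22 replicate 5. The members and lists were chosen with earlier results of these data known. The fits were checked on simulated data with 1 spread for each probe set at all ages. Such data lack the wider F22 spread of some genes and the arrays that stood apart, which the check does not cover. Same-numbered F22 and F20 arrays did not deviate together (r of -0.137 to 0.038 over 5 pairs), so that the numbers were not used as pairs. Alternatives covered array weights, normalisation, the set of arrays in the fit, dim probe sets, the prior and the arrays left out. Promoters were 250 bases before to 50 bases after the RefSeq start (build GRCr8).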

Additional observations from a re-analysis of the deposited data

Results flagged for a closer look

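Samples far from the rest of their group of 5 were found in 27 of 280 groups of single genes and in 9 of 114 groups of list means, and 17 and 7 of these were F22 replicate 5. Chance alone marks about 1 in 20 groups, and the genes and the arrays are not independent. Some of the genes were named because they deviated most on F22 replicate 5, such as *Wfdc18*, *Ahsp* and *Spetex2g*. This choice raises the count of that array among single genes, which therefore cannot be set against the rate. In F22 replicate 5 the log2 signal lay far below the rest of F22 for *Ccne1* (9.87), *Chaf1b* (8.83), *Cdc20* (10.37), *Plk1* (10.52), *Aurka* (8.19), *Myc* (8.86), *Igfbp2* (8.14), *Cyp2f4* (7.50), *Ivl* (9.65), *Krt10* (13.51), *Hbe1* (8.31), *Ahsp* (8.58), *Wfdc18* (6.63) and *Slc7a11* (6.37). It lay far above for *Pdk4* (9.83), *Spetex2g* (7.23) and *Bglap* (9.02). The list means of that array were low for cell cycle (9.66), DNA replication (9.75), ribosome biogenesis (9.81), NRF2 antioxidant genes (9.69), cholesterol synthesis and lipogenesis (9.98), epidermis (9.68) and erythroid genes (8.90).

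F22 replicate 2 was far from the rest for *Krt13* (7.55, high) and *C1qa* (9.27, low). Among the F20 arrays, replicate 4 was far from the rest for *Car6* (8.18, high), *Krt10* (13.28, low) and *Slc7a11* (7.74, low). Replicate 5 was so for *Irf7* (7.74, high), *Dmd* (9.36, low), *Aldh1a1* (7.38, low), the collagen list (11.12, high) and the interferon list (7.08, low), replicate 1 for *Myh3* (13.04, high) and replicate 3 for *Chaf1b* (9.65, high).

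The change from F20 to F22 was set against that in liver for a chosen few of the named genes, and the values of the 7 that passed follow. Other named genes passed as well, such as *Mlf1* (2.63, adjusted p = 1.3e-10 in limma), so the 7 are no count over the named genes. The muscle change minus the liver change was 1.66 for *Xirp2*, 1.26 for *Trdn* and 0.39 for *Mcm5*, and it was -6.20 for *Adh1c*, -3.59 for *Krt77*, -1.48 for *Mmp8* and -0.68 for *S100a9* (limma, adjusted p = 0.034 at the highest).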

How the results depend on the processing

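Of the probe sets, 817 were higher and 1862 lower in F22 than in F20, 1574 and 3054 with no adjustment of p, and 1686 and 3036 with array weights, which gave F22 replicate 5 and F20 replicates 4 and 5 the lowest weights of these 10 arrays. Leaving out 1 array at a time gave 592 to 909 higher and 1447 to 1765 lower. A fit of the F20 and F22 arrays only, without the spread of the other ages, gave 669 higher and 1440 lower. In that fit 11 of 140 named genes lost their call and 4 gained one. With the replicate number as a block, 769 were higher and 1690 lower, and 1 of 140 named genes lost its call. Higher probe sets were 30.5% of those that passed, and 41.0% without the 3 arrays that stood apart (996 higher, 1432 lower). The muscle change was higher than the liver change for 1907 probe sets, and for 3000 with array weights. The change from F20 to F22 was higher than that from F18 to F20 for 515 (1545 at an unadjusted p, 817 with array weights) and lower for 1005 (2382 at an unadjusted p). The change from F22 to P1 was higher than that from F20 to F22 for 444 (1746 at an unadjusted p, 1392 with array weights) and lower for 194 (919 at an unadjusted p, 931 with array weights, 301 without F22 replicate 5). Not all of the 140 named genes were in the fit without dim probe sets. Of the 140, 120 passed and 99 of these did so in every setting that tested them. The sign turned for 4 that did not pass: *Rsad2* was at -0.022 and *Wfdc18* at -0.081 without F20 replicates 4 and 5, *Slc7a11* at 0.018 with array weights and 0.051 without the 3 arrays, and *Spetex2g* at -0.12 and -0.28 in these settings. With 1 array left out at a time, *Wfdc18* ranged from -0.16 (without F22 replicate 1) to 0.95, *Slc7a11* from -0.41 to 0.30 and *Spetex2g* from -0.012 to 0.55, the extremes of opposite sign coming without F22 replicate 5 for *Slc7a11* and *Spetex2g*. The cause was not tested. Counts of list members with arrays left out were chosen after seeing the data.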

Other observations

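Of 15 genes of the circadian clock 5 rose and 1 fell (5.54% and 12.3% of all genes), and of 31 genes of the amino acid stress response 3 rose, *Nupr1* with the highest difference, and 2 fell. Of 21 genes of fatty acid uptake and storage 3 rose and 1 fell, and 7 rose without F20 replicates 4 and 5 and 5 without these and F22 replicate 5. *Fabp4*, the fatty acid carrier of adipocytes and endothelium, had log2 signals of 8.52, 8.49, 9.26, 8.62 and 9.44 in F22, against 7.58, 7.51, 7.17, 8.59 and 8.45 in F20, where replicate 4 reached the F22 range (1.01 ± 0.28, adjusted p = 0.012 in limma). *Adipoq*, the hormone of mature adipocytes, was at 8.00 on F22 replicate 5 and at 6.41 to 7.21 on the other F22 arrays, against 6.23 to 6.77 in F20, and did not pass (0.44, adjusted p = 0.56). Of 24 genes of cholesterol synthesis and lipogenesis 1 rose and 1 fell, and without F22 replicate 5, 4 rose and none fell.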
